A study of Homo sapiens with 4 samples.

Results

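The STAT and IRF transcription factors were followed here as 8 named genes of the deposited count table, STAT2, STAT3, STAT6, IRF1, IRF2, IRF3, IRF7 and IRF9, out of 58051 gene rows. They were taken by gene symbol, and each symbol matched 1 row. The counts come from polyadenylated RNA of cisplatin-resistant (CR) IGROV1 cells, with 2 libraries, and from IGROV1 wild-type (WT) cells, with 2 libraries, labelled susceptible to the drug. IGROV1 is a human ovarian cancer line, and cisplatin is a platinum compound that crosslinks DNA. The CR cells were grown out of the WT cells over 5 months and 6 rounds of 4 hours in cisplatin at rising concentrations, each round ending with 3 weeks of drug-free culture. Both cell populations were untreated and dividing when harvested, so the comparison holds no acute drug exposure. The series' design text calls the libraries biological replicates, all from 1 resistant and 1 parental line, so the p-values below measure the spread between cultures and not between independent selections.

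STAT proteins wait in the cytoplasm, are phosphorylated by JAK kinases at cytokine receptors and then enter the nucleus as dimers. STAT2 joins a partner STAT and the DNA-binding subunit IRF9 in the complex that answers type I and type III interferon. STAT3 answers the IL-6 family and STAT6 answers IL-4 and IL-13. IRF1 activates and IRF2 mostly represses a shared set of promoters, among them those of antigen presentation genes, while IRF3 and IRF7 are phosphorylated downstream of nucleic acid sensors and switch on the interferon genes. Most of this regulation acts on the proteins, which RNA counts do not measure.

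Many STAT dimers bind the palindrome TTCNNNGAA, known as the gamma-activated site (GAS). IRF proteins bind the interferon-stimulated response element (ISRE), searched here as GAAANNGAAA and, for the other strand, TTTCNNTTTC. RefSeq promoter windows (GRCh38.p14) were at hand for 5 of the 8 genes: STAT2, STAT3, STAT6, IRF1 and IRF9. Starts here are RefSeq's, which lie downstream of the outermost start of the GENCODE 29 gene, by 25 bases in IRF1, 48 in STAT2, 126 in STAT3, 212 in IRF9 and 21850 in STAT6. In the 250 bases before the RefSeq start, GAS letters were present in IRF1 and IRF9 and absent from the STAT2, STAT3 and STAT6 windows, while ISRE letters were in none of the 5. Across 27305 promoters of the same length, 6.78% held the GAS letters and 3.07% the ISRE letters. The GAS search does not cover a wider spacing, TTCNNNNGAA, which was in 0 of the 5 windows and in 5.35% of all promoters. The IRF1 and IRF9 windows are printed because they carry the GAS letters in genes that belong to the family, with the matching bases in capitals. IRF1 is read from the minus strand of chr5:132490774-132491023 and its match lies 124 to 116 bases before the RefSeq start, outside the GENCODE gene. IRF9 is read from the plus strand of chr14:24161015-24161264 and its match lies 63 to 55 bases before the RefSeq start, which places it inside the gene as GENCODE annotates it.
IRF1: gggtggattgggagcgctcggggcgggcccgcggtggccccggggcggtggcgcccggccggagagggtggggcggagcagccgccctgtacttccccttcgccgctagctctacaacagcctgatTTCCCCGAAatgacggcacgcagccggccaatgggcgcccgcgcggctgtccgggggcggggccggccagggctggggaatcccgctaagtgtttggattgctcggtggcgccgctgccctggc
IRF9: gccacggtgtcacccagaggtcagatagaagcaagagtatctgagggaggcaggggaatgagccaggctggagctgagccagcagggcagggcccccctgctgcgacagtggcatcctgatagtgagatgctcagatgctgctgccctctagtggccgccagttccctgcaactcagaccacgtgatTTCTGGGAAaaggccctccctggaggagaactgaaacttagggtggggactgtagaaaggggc

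Library totals ranged from 24008899 to 24727362 counts in CR and from 23886257 to 24264458 counts in WT. Replicates differed more in WT, where the median absolute log2 ratio between the libraries was 0.44 over the genes tested, than in CR, where it was 0.17. The chi-square of counts between replicates, divided by its degrees of freedom, was 13.8 in CR and 84.6 in WT, above the value of 1 that counting noise gives, so no library was treated as a copy. Of 10 ovarian carcinoma and simple epithelial markers, 9 passed the low-count filter, and their list summed to 2808 and 2941 CPM (counts rescaled to a common, TMM-adjusted library size) in CR and to 5457 and 3793 CPM in WT. A list of 13 blood cell markers held leukocyte genes and the globin gene HBB. Its summed levels were 3.54 and 4.50 CPM in CR and 14.4 and 11.3 CPM in WT, with the B cell gene MS4A1 and the myeloid adaptor TYROBP at 0 in every library. The 10 fibroblast markers summed to 9.91 and 9.98 CPM in CR and to 73.5 and 44.8 CPM in WT, with DCN, LUM, COL1A2 and POSTN at 0 throughout. The 8 endothelial markers summed to 35.0 and 31.0 CPM in CR and to 67.5 and 86.3 CPM in WT, with KDR and ERG at 0. In WT the largest part of the last 3 sums came from ITGAM, COL1A1 and CDH5, 1 gene of each list. Members of these lists did not all move one way. Lower calls in CR numbered 5 among the epithelial markers and 1 in each of the other 3 lists. Higher calls were EPCAM and CDH1 among the epithelial markers and PECAM1 among the endothelial markers. Of all genes tested, 5.44% were called higher and 8.1% lower. PECAM1 had 3.78 and 3.27 CPM in CR and 0.129 and 0.335 CPM in WT (edgeR adjusted p = 0.0045). CDH5, the endothelial marker called lower, had 0.955 and 1.02 CPM in CR and 41.7 and 46.4 CPM in WT (edgeR adjusted p = 0.000138). What part these lists have in the results below was not tested.

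Set against exon length, the STAT genes and IRF3 were the abundant members and IRF7 and IRF9 the scarce ones. Levels per kilobase were computed from the merged exons of GENCODE 29 (GRCh38), which span 2628 bases in IRF7 to 8812 bases in STAT3. STAT3 led with 18.8 and 16.9 CPM per kilobase in CR and 25.01 and 34.5 CPM per kilobase in WT. STAT6 followed with 16.7 and 15.1 CPM per kilobase in CR and 29.9 and 18.5 in WT, so that the levels of both genes overlapped in WT and lay apart in CR. Next came STAT2, with means of 12.2 CPM per kilobase in CR and 11.5 in WT, and IRF3, with 11.4 in CR and 9.46 in WT. IRF2 had means of 6.60 CPM per kilobase in CR and 8.80 in WT, and IRF1 2.47 in CR and 4.28 in WT. IRF7 was at 1.10 in CR and 1.86 in WT, and IRF9 at 0.705 in CR and 1.02 in WT, also as mean CPM per kilobase. The level and place of IRF9 are uncertain, because the same-strand gene AL136295.5 covers 48.4% of its exons. It is not known whether reads shared by both were counted for IRF9. In CR every neighbouring pair in this order lay apart over its 2 libraries. In WT the ranges overlapped between STAT3 and STAT6, between STAT2 and IRF3 and between IRF3 and IRF2. With the shorter exon set of the GENCODE basic annotation, a choice made after the data were seen, the order of the group means was the same but for IRF7 and IRF9 in CR, at 1.357 and 1.360 CPM per kilobase.

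**Figure D1:**
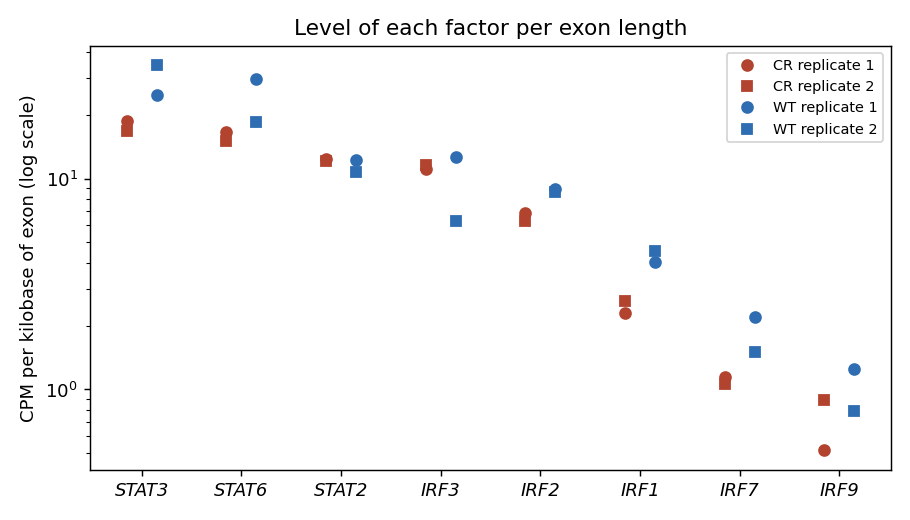
Level of each factor in CPM per kilobase of merged exon on a log scale, with CR libraries left of WT libraries and a circle or square for replicate 1 or 2. STAT3 and STAT6 stand at the top and IRF9, at a mean of 0.705 in CR and 1.02 in WT, at the bottom. The IRF9 level is uncertain because the same-strand gene AL136295.5 overlaps its exons.

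None of the 8 genes passed the test between CR and WT. This result does not show that they were unchanged, because small differences were often missed in simulated counts. There, a planted ratio of 2 was detected in 33 out of 100 cases, and a ratio of 4 in 99. Among the 8 genes the largest ratio of group means, in either direction, was 1.73 (IRF1, WT over CR). All 8 were abundant enough to be tested, and 0 were called higher and 0 lower (edgeR's quasi-likelihood F test over 17304 genes, Benjamini-Hochberg adjusted, threshold 0.05). Over all genes tested, 942 were higher and 1402 lower, 13.5% in all (5.44% higher and 8.1% lower). At an unadjusted p of 0.05, 2 of the 8 genes were counted, both with lower values in CR, beside 26.1% of all genes (12.2% higher and 13.9% lower), a share close to that of the 8. DESeq2 and limma-voom called 0 of them (4.9% of all genes higher and 7.34% lower by DESeq2, 5.66% and 7.87% by limma-voom). In 5 of the 8 both CR libraries lay below both WT libraries, in 0 above, and in 3 the groups overlapped, whereas 28.2% of all tested genes lay below and 27% above. The median log2 fold change was -0.57 over the 8 genes and -0.0065 over all genes tested. In these cultures fewer expressing cells and less RNA per cell cannot be told apart.

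**Figure D2:**
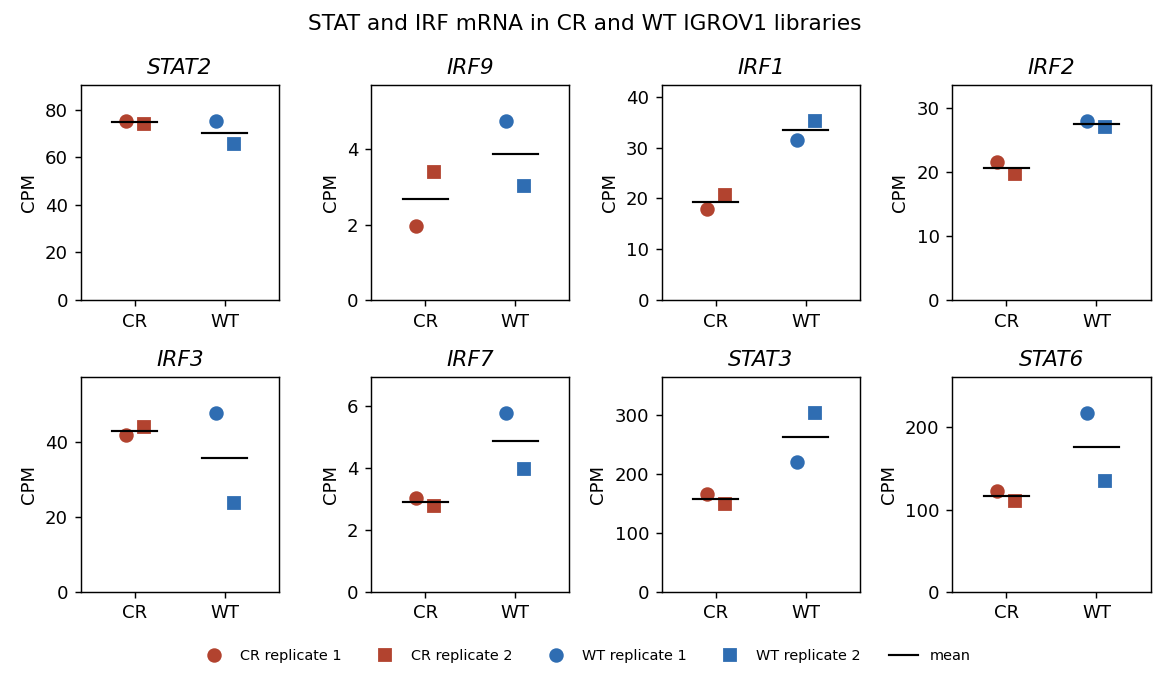
CPM of each of the 8 genes in every library, with CR left of WT, circles for replicate 1, squares for replicate 2 and a line at the group mean. IRF1, IRF2, IRF7, STAT3 and STAT6 have both CR libraries under both WT libraries, and the groups overlap for STAT2, IRF9 and IRF3.

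The 2 subunits of the type I interferon complex showed no difference past the test. STAT2 (chromosome 12, 56341597 to 56360155, minus strand) had 75.4 and 74.1 CPM in CR and 75.3 and 65.6 CPM in WT. The groups overlapped, since WT replicate 1 was level with CR. Its log2 fold change was 0.09 with a 95% interval of -0.39 to 0.56 (edgeR adjusted p = 0.849), the narrowest interval among the 8 genes. IRF9 (chromosome 14, 24161053 to 24166565, plus strand) had only 49 and 83 counts in CR and 111 and 72 counts in WT. That is 1.95 and 3.40 CPM in CR against 4.76 and 3.02 CPM in WT, with CR replicate 2 above WT replicate 2. The log2 fold change of IRF9 was -0.54 with an interval of -1.55 to 0.48 (edgeR adjusted p = 0.51). The CR libraries differed by 0.77 for IRF9 in log2 CPM with a prior count of 2, a gap smaller in 93.9% of the genes tested. A same-strand annotated gene, AL136295.5, covers 1838 bases or 48.4% of the IRF9 exons, and how reads shared by both were counted is not given in the sources used here.

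IRF1 and IRF2, the activator and the repressor of shared promoters, both had lower values in every CR library without passing. IRF1 (chromosome 5, 132481609 to 132490798, minus strand) had 17.9 and 20.6 CPM in CR and 31.4 and 35.3 CPM in WT. The groups stood well apart, at 19.2 ± 1.88 CPM in CR and 33.4 ± 2.70 CPM in WT (mean ± SD, n = 2 each). This was the smallest adjusted p of the 8 genes, at a log2 fold change of -0.79 (SE 0.23, 95% interval -1.33 to -0.26; edgeR adjusted p = 0.0656). IRF2 (chromosome 4, 184387713 to 184474580, minus strand) had 21.5 and 19.6 CPM in CR and 27.9 and 26.9 CPM in WT. IRF2 varied least of the 8 between the WT libraries, and its log2 fold change was nearer to 0, with an estimate of -0.41 (interval -0.93 to 0.10; edgeR adjusted p = 0.298). The ratio of IRF1 to IRF2 counts within a library was 0.833 and 1.05 in CR and 1.13 and 1.31 in WT, with no test run on it. The opposite-strand gene C5orf56 shares 1716 exon bases with IRF1 and had 54 and 46 counts in CR and 147 and 124 counts in WT. The libraries mark strand, but the strand setting of the counting is not given in the sources used here.

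Of the sensor-driven factors, IRF3 had overlapping groups and IRF7 had lower values in both CR libraries, and neither passed. IRF3 (chromosome 19, 49659569 to 49665875, minus strand) had 42.04 and 44.3 CPM in CR and 48.0 and 23.8 CPM in WT. Both CR libraries lay between the WT libraries, which were 1.01 apart on the log2 scale. The log2 fold change of IRF3 was 0.27 with an interval of -0.54 to 1.07 (edgeR adjusted p = 0.703). The opposite-strand apoptosis-related gene BCL2L12 shares 734 exon bases with it and had 1324 and 1453 counts in CR and 1377 and 940 counts in WT. IRF7 (chromosome 11, 612553 to 615999, minus strand) had 3.03 and 2.78 CPM in CR and 5.78 and 3.98 CPM in WT. The groups did not overlap, but the counts behind them were few, 76 and 68 in CR and 135 and 95 in WT. Its log2 fold change was -0.75 with an interval of -1.57 to 0.08 (edgeR adjusted p = 0.236).

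STAT3 and STAT6, which carry IL-6 family and IL-4 or IL-13 signals, had the highest levels per kilobase and lower values in both CR libraries, and neither passed. STAT3 (chromosome 17, 42313324 to 42388568, minus strand) had 166 and 149 CPM in CR and 220.4 and 304 CPM in WT. The groups were separate, and WT replicate 2 was the highest library. The log2 fold change of STAT3 was -0.74 (SE 0.21, 95% interval -1.25 to -0.23; edgeR adjusted p = 0.0726). STAT6 (chromosome 12, 57095408 to 57132139, minus strand) had 122 and 110.3 CPM in CR and 218 and 135 CPM in WT. Here WT replicate 1 was the highest library, and WT replicate 2 lay near the CR values. The log2 fold change of STAT6 was -0.60 with an interval of -1.22 to 0.01 (edgeR adjusted p = 0.202). The ratio of STAT3 to STAT6 counts within a library was 1.36 and 1.35 in CR and 1.01 and 2.26 in WT, so the WT libraries lay on both sides of the CR libraries.

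The calls depended on the WT pair. Without WT replicate 1, IRF3 was called higher and STAT3, IRF1 and IRF2 lower, in a fit that called 19.6% of all genes higher and 20.4% lower. Without WT replicate 2, 6 genes were called lower (STAT3, STAT6, IRF1, IRF2, IRF7 and IRF9) and 0 higher, beside 21% of all genes higher and 21.8% lower. Leaving out CR replicate 1 called 0 of the 8, beside 2.94% of all genes higher and 4.83% lower, and leaving out CR replicate 2 called 0, beside 3.33% higher and 5.07% lower. With 1 WT library left, the spread came from the tighter CR pair alone, and the lone library was assumed to vary like it. The log2 fold change of IRF3 was 0.85 without WT replicate 1 and -0.15 without WT replicate 2, and that of STAT2 was 0.18 without WT replicate 1 and -0.011 without WT replicate 2. With no low-count filter, STAT3 (edgeR adjusted p = 0.0135) and IRF1 (edgeR adjusted p = 0.0426) were called lower and 0 of the 8 higher, beside 5.75% of all genes lower and 4.42% higher. The stricter filter called 0 of the 6 genes it tested, beside 4.16% of all genes higher and 6.1% lower.

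Changing the scaling called 0 of the 8 genes in each case. The share of all genes called was 5.55% higher and 8.03% lower with RLE factors, 5.92% and 7.73% with upper quartile factors, and 5.94% and 7.68% with library size alone. Without robust estimation 0 of the 8 were called, beside 5.56% of all genes higher and 8.14% lower. With a block for the replicate number 0 were called, beside 7.27% higher and 8.77% lower. A crossed block, added after the data were seen, called IRF1 and STAT3 lower, beside 9.66% of all genes higher and 10.4% lower.

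**Figure D3:**
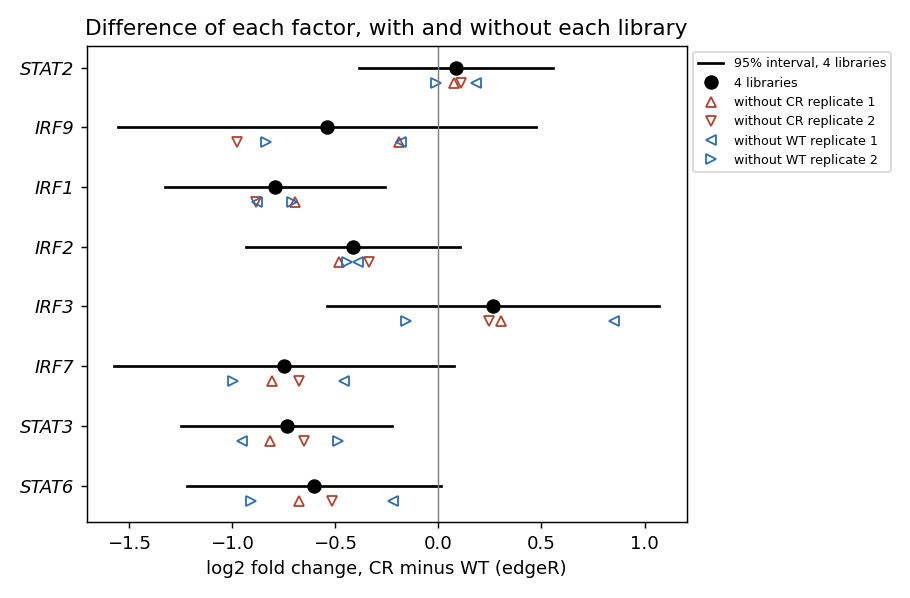
Log2 fold change (CR minus WT, edgeR) of each gene with its 95% interval over 4 libraries in black, and the estimates without each single library as open triangles. IRF1 stays between -0.88 and -0.70 in the 4 fits, while IRF3 lies on both sides of 0.

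Upstream of these factors, 2 of 10 interferon receptor chains and JAK kinases fell and 0 rose, beside 8.1% of all genes lower and 5.44% higher. IFNLR1, the chain specific to type III interferon, had 1 and 0 counts in CR and 512 and 710 counts in WT, or 1283 times as many in WT as in CR once scaled, where counting error alone (95%) allows 230 to 50703 (edgeR adjusted p = 0.000185). IL10RB, the chain that type III interferon shares with IL-10, fell to 17.4 and 19.8 CPM in CR, against 33.0 and 35.7 CPM in WT (edgeR adjusted p = 0.0424). IL10RB missed the threshold when CR replicate 1 (edgeR adjusted p = 0.613) or CR replicate 2 (0.402) was left out, with library size alone (0.053) and with the stricter filter (0.0617). Among these receptors and kinases, 2 were higher and 6 lower without WT replicate 1, 2 higher and 5 lower without WT replicate 2, and 1 lower when either CR library was left out. With no low-count filter 1 was higher. In that setting, here and in the lists that follow, 4.42% of all genes were higher and 5.75% lower. The counts with 1 library left out, here and in the lists that follow, stand beside larger or smaller shares of all genes. Those shares were 19.6% to 21% higher and 20.4% to 21.8% lower in the fits lacking a WT library, but 2.94% to 3.33% higher and 4.83% to 5.07% lower in the fits lacking a CR library.

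Among 10 tested ligands and receptors of the IL-6 family, which feed STAT3, 1 rose and 2 fell, beside 5.44% of all genes higher and 8.1% lower. IL6R, the ligand-binding chain, rose to 26.8 and 24.9 CPM in CR, against 5.44 and 6.28 CPM in WT (log2 fold change 2.14; edgeR adjusted p = 0.002). IL6 itself fell to 0.876 and 0.614 CPM in CR, against 5.48 and 4.44 CPM in WT (log2 fold change -2.73; edgeR adjusted p = 0.00572). The other gene that fell, named after its values were seen, was the cytokine CTF1, at 1.79 and 2.70 CPM in CR and 5.91 and 5.90 CPM in WT (edgeR adjusted p = 0.0434). The groups did not overlap for IL6R, IL6 or CTF1. The family had 4 higher and 5 lower genes without WT replicate 1 (19.6% and 20.4% of all genes), and 3 higher and 2 lower without WT replicate 2. It had 1 lower when either CR library was left out and with upper quartile factors, and 0 lower with the stricter filter, which tested fewer of them.

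Of 4 IL-4 and IL-13 receptor chains, 0 passed in either direction by edgeR, DESeq2 or limma-voom. Among these chains 1 had an unadjusted edgeR p under 0.05, beside 26.1% of all genes. Smallest in p were IL13RA2, at 0.677 and 0.409 CPM in CR and 1.07 and 1.76 CPM in WT, and IL2RG, at 0.159 and 0.409 CPM in CR and 0.514 and 1.26 CPM in WT. Both are scarce. When WT replicate 1 was left out, 1 chain was higher and 3 were lower. Of 18 sensors, adaptors and kinases upstream of IRF3 and IRF7, 0 rose and 3 fell, a called share of 16.7% that is near the 13.5% of all genes. The RNA sensor IFIH1 fell to 4.46 and 4.83 CPM in CR, against 26.7 and 35.1 CPM in WT (log2 fold change -2.73; edgeR adjusted p = 0.001). IKBKE, a kinase of IRF3 and IRF7, fell to 21.3 and 22.4 CPM in CR, against 51.4 and 48.8 CPM in WT (edgeR adjusted p = 0.0116; 0.23 and 0.177 without CR replicate 1 and 2). MAVS, the mitochondrial adaptor downstream of IFIH1, also fell, to 96.1 and 80.9 CPM in CR, against 167 and 193 CPM in WT (edgeR adjusted p = 0.0165), and is named after its values were seen. These sensors, adaptors and kinases had 2 higher and 9 lower genes without WT replicate 1 (19.6% and 20.4% of all genes), 1 higher and 6 lower without WT replicate 2, and 1 lower when either CR library was left out. With no low-count filter 1 was higher.

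Of 17 inhibitors of STAT signalling, 0 passed by edgeR, DESeq2 or limma-voom, and 3 had an unadjusted edgeR p under 0.05, beside 26.1% of all genes. SOCS1, a JAK inhibitor whose gene is itself induced by STATs, had 0.438 and 0.409 CPM in CR and 1.59 and 1.13 CPM in WT (edgeR adjusted p = 0.0726). PIAS3, a binding partner of STAT3, had 31.1 and 25.7 CPM in CR and 55.9 and 41.1 CPM in WT (edgeR adjusted p = 0.102, and 0.0407 with no low-count filter). Among the inhibitors 1 was higher and 4 lower without WT replicate 1 (19.6% and 20.4% of all genes), 5 higher and 5 lower without WT replicate 2 (21% and 21.8%), and 1 lower with no low-count filter.

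Genes known to be induced through IRF1 were mostly lower in CR. IRF1 itself had lower values in both CR libraries (log2 fold change -0.79) and did not pass. What part IRF1 has in the levels of these genes was not tested. Of 22 tested genes 16 fell and 0 rose, where 8.1% of all genes tested were lower. In 21 of them both CR libraries lay below both WT libraries, as in 28.2% of all genes, and their median log2 fold change was -1.19. PSMB8, an immunoproteasome subunit, fell to 0.358 and 0.327 CPM in CR, against 169 and 154 CPM in WT (edgeR adjusted p = 9.28e-05). GBP1, an interferon-induced GTPase, fell to 0.637 and 0.368 CPM in CR, against 70.2 and 122 CPM in WT (log2 fold change -7.56; edgeR adjusted p = 0.000215). The list holds HLA genes, whose counts are uncertain because they share sequence. It was chosen with results of these data known. Leaving out single libraries gave 11 to 21 lower members and 0 higher, where 4.83% to 21.8% of all genes were lower.

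Of 32 tested genes known to be induced through STAT2 and IRF9, 10 fell and 0 rose, beside 8.1% of all genes lower, with a median log2 fold change of -0.72. The 1 gene that had 0 counts in CR lies below this median also when set to its bound, so the median could not change. IFI27, a mitochondrial protein gene used as an interferon marker, fell to 3.46 and 5.69 CPM in CR, against 89.8 and 100.4 CPM in WT (log2 fold change -4.38; edgeR adjusted p = 0.000361). SAMD9L, an antiviral and growth-restraining factor, had 3 counts over CR and 260 over WT, or 91.0 times as many in WT as in CR once scaled, where counting error alone (95%) allows 30.8 to 444 (edgeR adjusted p = 0.000629). Lower calls among these targets numbered 24 without WT replicate 1 (20.4% of all genes lower) and 18 without WT replicate 2 (21.8%), each beside 1 higher. They numbered 7 without CR replicate 1 (4.83%), 8 without CR replicate 2 (5.07%) and 6 with the stricter filter (6.1%).

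Of 16 tested genes known to be induced through STAT3, 4 fell and 1 rose, beside 8.1% of all genes lower and 5.44% higher, with a median log2 fold change of -0.45. ICAM1, an adhesion molecule also induced by NF-kB, fell to 0.0398 and 0.164 CPM in CR, against 53.5 and 92.3 CPM in WT (edgeR adjusted p = 0.000208). LRG1, an acute phase glycoprotein, fell to 1.19 and 2.21 CPM in CR, against 47.9 and 37.6 CPM in WT (edgeR adjusted p = 0.000489). The others, named after their values were seen, were the surface mucin gene MUC1 and the protease inhibitor gene TIMP1, which fell, and the immediate early factor FOS, which rose. MUC1 had 3.26 and 4.50 CPM in CR and 28.6 and 13.9 CPM in WT (edgeR adjusted p = 0.0095), and TIMP1 had 177 and 197 CPM in CR and 398 and 283 CPM in WT (edgeR adjusted p = 0.0422). FOS had 3.11 and 4.58 CPM in CR and 0.857 and 0.712 CPM in WT (edgeR adjusted p = 0.0134). When either WT library was left out, 3 STAT3 targets were higher and 9 lower, beside 19.6% to 21% of all genes higher and 20.4% to 21.8% lower. FOS was not called without CR replicate 2 or with the stricter filter.

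**Figure D4:**
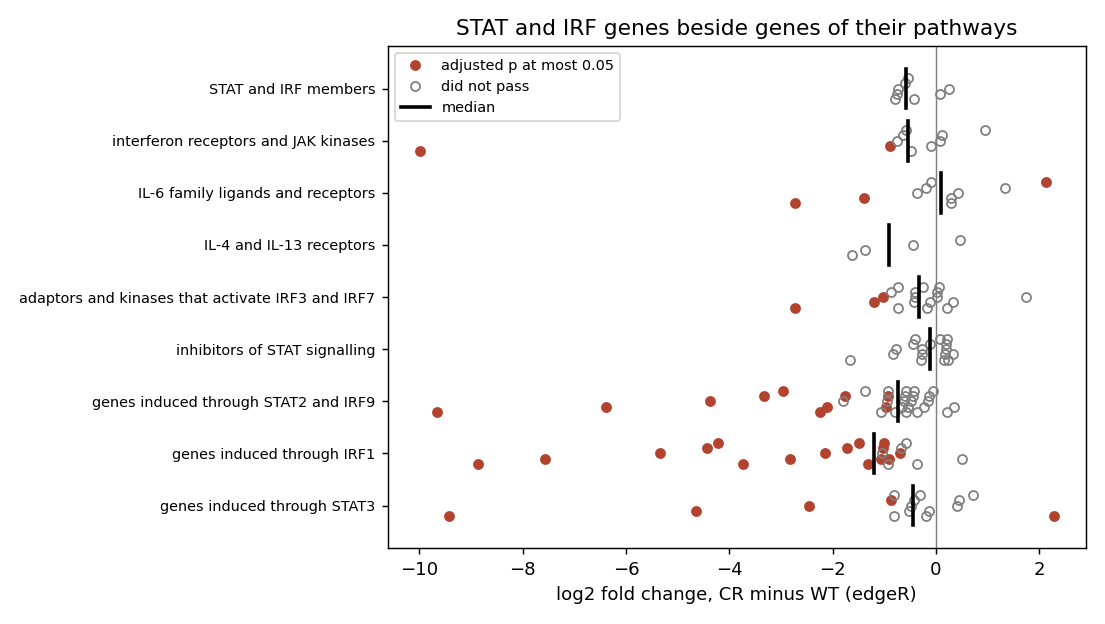
Log2 fold change (CR minus WT, edgeR) of the 8 STAT and IRF genes in the top row and of the tested genes of each pathway list under them, with filled points for adjusted p at most 0.05 and a bar at the median. The 8 factors lie between -0.79 and 0.27, while genes induced through IRF1 reach -8.86. The 3 lowest points rest on 0 to 5 counts in CR and depend on the prior count of the fit.

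Promoter letters were counted for the induced genes in the same way. ISRE letters were in 11 of 18 promoters of genes induced through IRF1 and in 18 of 29 promoters of genes induced through STAT2 and IRF9. They were in 3.07% of all promoters and in 0 of 17 among genes induced through STAT3. GAS letters were in 3 of 17 promoters of the STAT3 list, against 6.78% of all promoters. They were in 7 of 29 of the STAT2 and IRF9 list and in 2 of 18 of the IRF1 list. Within the IRF1 list ISRE letters were in 8 of 13 promoters of genes that fell and in 2 of 3 of genes tested but not called. Within the STAT2 and IRF9 list they were in 4 of 8 that fell and in 13 of 18 that were not called. Windows of IFI27 and GBP1 are shown as examples of the element in genes that fell. IFI27 is read from the plus strand of chr14:94110603-94110662 and GBP1 from the minus strand of chr1:89065301-89065360, both in RefSeq's GRCh38.p14, with 1 ISRE match each in capitals. In IFI27 a GAS match overlaps the one marked, and a second ISRE match follows it. A match describes letters and is not a binding site.
IFI27: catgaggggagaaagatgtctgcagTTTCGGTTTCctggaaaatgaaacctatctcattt
GBP1: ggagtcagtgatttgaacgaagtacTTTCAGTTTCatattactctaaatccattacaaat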

How the data were processed

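RNA-seq of 4 libraries was analysed. The submitters' processing notes name DESeq, HTSeq, STAR 2.5.1a and the build GRCh38.p7 without roles or order; neither the annotation release nor the strand setting is given in the sources used here. The authors deposited raw counts per Ensembl gene, which were tested here. Their second deposited table, a normalized signal, equals those counts divided by 1 factor per library that matches DESeq2's size factor, and it was used only to recheck levels. Rows without a symbol held 0.415% to 0.515% of the counts. Unmapped columns numbered 0.

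CR minus WT was fitted over all genes in R 4.3.3 with edgeR 4.0.16: TMM factors, filterByExpr (minimum count 10), robust quasi-likelihood fit and test, group as the only term, Benjamini-Hochberg adjustment, threshold 0.05. SEs were taken from each fold change and its F statistic, and intervals are 95% and unadjusted. Counting intervals are exact binomial and cover counting error only. With 2 libraries a group, exact permutation has a smallest two-sided p of 0.333 and was not used. The code was tested on simulated counts. DESeq2 1.42.0, limma 3.58.1, other scalings, other filters, single libraries left out and replicate blocks were alternatives. The genes, the 8 pathway lists (142 genes) and the naming rule (all 8 factors and, in each list, the 2 genes with the smallest adjusted p) were chosen with earlier results of these data known. A rule for genes of similar pattern applied only to called factors and named none. Coordinates and lengths came from GENCODE 29, which uses the GRCh38 coordinates.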

Additional observations from a re-analysis of the deposited data

How the results depend on the processing

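Of the 8 genes, 0 were called in either direction under every alternative scaling, under DESeq2, limma-voom, the fit without robust estimation and the stricter filter, which tested 6 of them. Lower calls numbered 2 with no low-count filter and 0 to 6 when single libraries were left out, and higher calls 0 to 1. With single libraries left out the log2 fold change ranged from -0.011 to 0.18 for STAT2 and from -0.15 to 0.85 for IRF3, both with the opposite sign without WT replicate 2. Over all genes, leaving out single libraries gave 537 to 3864 higher and 883 to 4015 lower calls. There were 1454 higher calls with no filter, and 472 higher and 692 lower with the stricter filter, which tested fewer genes. Nothing in the labels says that replicate numbers pair the samples, and deviations of same-numbered libraries correlated at -0.17. The replicate block called 0 of the 8 genes and 1258 higher and 1517 lower over all genes. A crossed replicate block, added after the data were seen, called 2 of the 8 lower and 1671 higher and 1803 lower over all genes. Ratios of group means from the deposited normalized signal moved by less than the replicate spread for all 8 genes. IRF7 and IRF9 had 49 to 135 counts per library, which limits their precision.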

Other observations

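Interferon genes themselves, chosen after their values were seen, had little RNA in either group. Of 22 type I, II and III interferon genes in the table, 2 passed the low-count filter and 10 had any count. Their summed counts were 66 and 105 in CR and 39 and 50 in WT, with at most 61 counts for 1 gene in 1 library.

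The ratio of IRF3 to IRF7 counts within a library was 13.9 and 15.9 in CR and 8.30 and 5.99 in WT. The ratio of STAT2 to IRF9 counts was 38.7 and 21.8 in CR and 15.8 and 21.8 in WT. No test was run on either ratio, and the IRF9 counts carry the uncertainty of the overlap with AL136295.5.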
